A study of Mus musculus with 2 samples.

Results

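The 9 genes described here encode cytokines of the interleukin-6 family and the receptors through which they signal. They were taken by symbol: the 4 ligands Il6, Il11, Lif and Clcf1, the 3 signalling receptors Il6st (gp130), Lifr and Osmr, and the 2 ligand-binding receptors Il6ra and Il11ra1. Each symbol matched 1 Ensembl identifier in the GENCODE annotation of GRCm38, so 9 of the 55487 genes in the table were members. Their mRNA was measured by RNA sequencing in apoptotic osteoblasts, bone-forming cells killed with ultraviolet light, from old and from young mice, with 1 library for each age. Both groups came from cultured bone pieces whose adherent cells were passaged 3 times, kept in osteogenic medium for 3 days and irradiated for 0.5 h, after which more than 90% were stained by Trypan Blue, which marks cells whose membrane has failed. The labels name no strain, sex, age in months or genotype, and the number of animals or cultures behind each library is not stated. A treatment label reads day 5 for the old and day 0 for the young library, so day and age cannot be told apart.

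Cytokines of this family signal through gp130, the product of Il6st, which most cells carry. Interleukin-6 and interleukin-11 first bind their own receptors, Il6ra and Il11ra1, and then bring gp130 molecules together. Leukemia inhibitory factor (Lif) pairs gp130 with Lifr, oncostatin M in the mouse pairs it mainly with Osmr, and Clcf1 acts through Cntfr, Lifr and gp130. The receptors activate JAK kinases and the transcription factor Stat3, and Socs3 is the feedback inhibitor that binds gp130. In bone, osteoblasts and stromal cells make interleukin-6, interleukin-11 and Lif, and gp130 signals in these cells are known to raise RANKL and so osteoclast formation.

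The total of reads on genes, inferred from the deposited values, was 18114336 in the old and 16333396 in the young library. The 9 osteoblast markers covered a wide range of levels in both, with Col1a1, the main collagen of bone, at 6788 FPKM in the old and 8568 FPKM in the young library, Runx2 at 72.7 and 92.1 FPKM, and Sp7 at 28.9 and 55.5 FPKM (FPKM are fragments scaled by gene length and by the size of the library). Markers of matrix mineralisation were low: Alpl, alkaline phosphatase, was at 3.28 FPKM in the old and 2.78 FPKM in the young library, Ibsp, bone sialoprotein, at 5.90 and 6.31 FPKM, and Bglap, osteocalcin, had 6 and 3 reads. Sequence shared with other genes was not measured for the markers, so reads of Bglap lost in this way cannot be told from a low level. Of the osteoblast markers 2 were past 2-fold, both higher in the old library: Spp1, the matrix protein osteopontin, at 1732 FPKM in the old and 224 FPKM in the young library, and the osteocyte gene Dmp1, at 4.85 and 0.377 FPKM. Of the 12561 genes that averaged 1 FPKM or more, 1.97% were 2-fold or more higher in the old library and 0.868% lower. Whether these marker differences have a part in the values below was not tested. Of 12 leukocyte markers 5 were at 0 in the old and 6 in the young library. The pan-leukocyte gene Ptprc had 0 reads and 1 read, and Adgre1 and Itgam had 0 in both. The summed level of that list was 31.6 FPKM in the old and 34.6 FPKM in the young library, most of it Lyz2, Cd74 and Cd68. Endothelial markers summed to 0.337 FPKM in the old and 0.357 FPKM in the young library, adipocyte markers to 0.356 and 0.0524 FPKM. The osteoclast list was led by Ctsk, at 48.0 FPKM in the old and 51.7 FPKM in the young library, while the osteoclast enzyme Acp5 had 0 reads and 1 read.

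Sites from the ligand genes are shown because an AU-rich heptamer was present in the 4 ligand mRNAs and absent from those of the 5 receptors. All 4 ligand mRNAs held the AU-rich heptamer TATTTAT (U for T in the RNA) in the 3′ untranslated region, a kind of element bound by RNA-destabilising proteins of the Zfp36 family, and none of the 5 receptor mRNAs did. In the transcript with the longest coding part, Il6 had 1 heptamer in 427 bases, Il11 6 in 1194 bases, Lif 5 in 3180 bases and Clcf1 4 in 922 bases. The receptors had 0 in regions of 354 to 6320 bases, the longest being that of Lifr. Of 21123 protein-coding genes with such a region, of any length and with a median of 806 bases, 25.5% held the heptamer at least once. The shorter AU-rich pentamer ATTTA did not fully separate the groups. It occurred 4 to 10 times in each ligand, 1 to 11 times in Il6st, Lifr, Osmr and Il6ra, and not in Il11ra1. Per kilobase Il6 had 14.1 pentamers, Il11 8.38, Clcf1 4.34 and Lif 2.20, against 1.94 over all these genes. The receptors ranged from 0 in Il11ra1 to 2.23 in Osmr, so only Lif was not above every receptor. The first site of each ligand is printed 5′ to 3′ on the gene's strand from the GENCODE M21 transcripts (GRCm38), with heptamers in capitals. The Il6 site lies at chr5:30019728-30019757 (plus strand), the Il11 site at chr7:4773501-4773530 (minus strand), the Lif site at chr11:4270469-4270498 (plus strand) and the Clcf1 site at chr19:4223394-4223423 (plus strand).
Il6: tttatgattgaTATTTATtatttttatgaa
Il11: aaaccagatctTATTTATTTATTTATtttg
Lif: gcacagctgtcTATTTATtactatgtccTA
Clcf1: tgttgtattaaTATTTATTTATttggagat
The Il11 site holds overlapping copies of the heptamer in a row, while the Il6 site holds a single copy. The capitals TA at the end of the Lif site begin the next heptamer, which runs past the printed bases.

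RefSeq windows of GRCm38.p6 were found for 8 of the 9 members; Clcf1 had no entry. The RefSeq start is not always the start of the GENCODE gene given with the values. It was the same base for Il6, Il6st and Il6ra and close to it for Lif and for the first window of Il11. It lay inside the GENCODE gene for Osmr (6874313), for both windows of Lifr (7129572 and 7140542) and of Il11ra1 (41760443 and 41762310), and for the second window of Il11 (4778141). The 250 bases before each RefSeq start were searched on both strands for the AP-1 motif TGACTCA, the cyclic AMP response element TGACGTCA, the C/EBP motif TTGCNNAA, the STAT motif TTCNNNGAA, an NF-kB motif (GGGNN followed at once by TTTCC) and the TATA box TATAAA. Il6 held 3 matches that did not overlap each other: AP-1 at −249 to −243 from the start, C/EBP at −128 to −121 and NF-kB at −44 to −35. Lif held 1 match, AP-1 at −228 to −222, and Il11 held 1, AP-1 at −98 to −92 in the second of its 2 windows. No window of the receptors Il6st, Lifr, Osmr, Il6ra or Il11ra1 held any of these motifs. Of all 32851 windows, 4.46% held the AP-1 motif, 9.56% the C/EBP motif, 1.41% the NF-kB motif, 1.55% the cyclic AMP response element, 7.02% the STAT motif and 12.4% the TATA box. A match is a string of letters and not a measured binding site. The Il6 window (chr5:30012864-30013113, plus strand) and the Lif window (chr11:4257318-4257567, plus strand) are printed because these genes had the highest FPKM ratios of the ligands, with matches in capitals.
Il6: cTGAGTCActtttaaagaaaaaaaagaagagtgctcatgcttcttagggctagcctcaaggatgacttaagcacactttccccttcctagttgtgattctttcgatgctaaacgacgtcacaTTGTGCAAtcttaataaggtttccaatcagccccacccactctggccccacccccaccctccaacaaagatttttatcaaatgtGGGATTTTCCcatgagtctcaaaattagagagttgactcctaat
Lif: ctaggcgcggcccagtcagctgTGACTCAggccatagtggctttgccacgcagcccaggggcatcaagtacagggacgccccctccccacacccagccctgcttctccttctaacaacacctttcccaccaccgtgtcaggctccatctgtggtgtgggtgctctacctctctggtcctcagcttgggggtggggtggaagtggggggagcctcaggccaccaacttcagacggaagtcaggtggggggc
The Il6 window had a GC content of 42.8%, and that of Lif 63.6%.

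Among the ligands, Il6 and Lif were higher in the old library, Clcf1 was slightly higher and Il11 was near its detection limit in both. Il6 (ENSMUSG00000025746, chromosome 5, 30013114 to 30019981), which encodes interleukin-6, was at 3.64 FPKM in the old library, from 84 reads, and at 1.25 FPKM in the young, from 26 reads. The FPKM ratio, old over young, was 2.91, with a 95% counting interval of 1.86 to 4.71. Counting intervals are exact Clopper-Pearson intervals of the reads and cover counting error only; with 1 library for each age the spread between animals or cultures is unknown and no difference has a replicate check. On the log2 scale of FPKM + 1 the Il6 ratio was 1.04, rank 233 among the 12561 genes that averaged 1 FPKM or more, and it was the only member at 2-fold or more. No exon of Il6 overlapped another gene, and none of its sequence words of 50 bases was shared. In bulk RNA, fewer cells of a type and less RNA per cell cannot be told apart.

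Lif (ENSMUSG00000034394, chromosome 11, 4257557 to 4272514) was at 2.34 FPKM in the old and 1.23 FPKM in the young library, from 116 and 55 reads. Its ratio was 1.90, with an interval of 1.37 to 2.67, and the log2 ratio of FPKM + 1 was 0.58. Clcf1 (ENSMUSG00000040663, chromosome 19, 4214238 to 4223490), which encodes cardiotrophin-like cytokine factor, was the most abundant of the 4 ligands in both libraries. It was at 19.7 FPKM in the old and 17.0 FPKM in the young library, from 591 and 460 reads, a ratio of 1.16 with an interval of 1.02 to 1.31. Another gene overlapped 8.17% of its exon bases. Il11 (ENSMUSG00000004371, chromosome 7, 4772373 to 4782859), which encodes interleukin-11, had 8 reads in the old and 7 in the young library, 0.331 and 0.322 FPKM. Its interval of 0.327 to 3.34 leaves a difference of up to about 3-fold in either direction undetectable at this depth.

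The signalling receptors were at 26.3 to 55.7 FPKM across both libraries and did not all differ in the same direction. Il6st (ENSMUSG00000021756, chromosome 13, 112464070 to 112510086), the shared subunit gp130, was at 55.7 FPKM in the old and 47.0 FPKM in the young library, from 2872 and 2184 reads. Its ratio was 1.19, with an interval of 1.12 to 1.25. Osmr (ENSMUSG00000022146, chromosome 15, 6813577 to 6874969), the oncostatin M receptor, had the highest ratio of the 3. It was at 37.2 FPKM in the old and 26.3 FPKM in the young library, a ratio of 1.42 with an interval of 1.32 to 1.52. Lifr (ENSMUSG00000054263, chromosome 15, 7090614 to 7197489), on the same chromosome as Osmr, was lower in the old library at 44.8 FPKM, against 50.5 FPKM in the young. Its ratio was 0.887, with an interval of 0.841 to 0.935. The level of Osmr relative to Lifr was 0.832 in the old and 0.521 in the young library, and that of Lifr relative to Il6st was 0.804 and 1.07.

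The ligand-binding receptors stood at opposite ends of the receptor levels. Il6ra (ENSMUSG00000027947, chromosome 3, 89864059 to 89913196), the receptor that binds interleukin-6, was at 1.51 FPKM in the old and 0.685 FPKM in the young library, from 164 and 67 reads. The FPKM ratio was 2.21, with an interval of 1.65 to 2.98, and the log2 ratio of FPKM + 1 was 0.58, under 2-fold, because the added 1 weighs heavily at this level. Il11ra1 (ENSMUSG00000073889, chromosome 4, 41699989 to 41769474), the receptor for interleukin-11, was the most abundant member in both libraries. It was at 59.6 FPKM in the old and 69.6 FPKM in the young library, a ratio of 0.856 with an interval of 0.795 to 0.921. Its value is uncertain, since 52.1% of its words were shared with the near-identical Il11ra2 and Gm13305, whose 4 identifiers held 1 read in the old and 0 in the young library. The level of Il6st relative to Il6ra was 36.9 in the old and 68.6 in the young library.

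**Figure D1:**
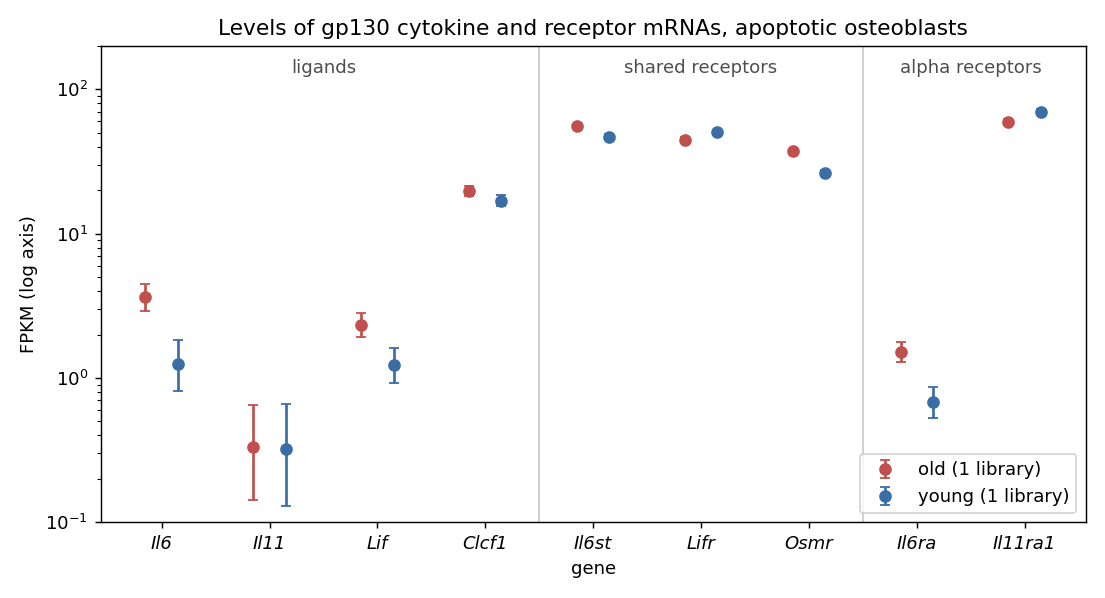
FPKM of each member (log axis) in the old and young library, 1 library each, with 95% exact Poisson counting intervals as bars, grouped as ligands, shared receptors and alpha receptors (the ligand-binding ones). Il11ra1, Il6st, Lifr and Osmr lie between 26.3 and 69.6 FPKM in both libraries, and Il11 is lowest at 0.331 and 0.322 FPKM.

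The order of levels within each library put the receptors Il11ra1, Il6st, Lifr and Osmr above Clcf1, and Clcf1 above Il6, Lif, Il6ra and Il11. In the old library the counting intervals of Il11ra1 and Il6st overlapped, and all other neighbours were apart. In the young library Lifr came before Il6st with overlapping intervals, Il6 and Lif overlapped, and so did Il6ra and Il11. The order among close members rests on the gene length, which was the mean of the annotated transcripts. With the longest transcript as the length, Osmr moved to rank 2 in the old library, at 21.5 FPKM on that length against 18.3 for Il6st. With all exon bases as the length, Clcf1 came before Osmr in the young library, at 7.40 against 6.88 FPKM on that length and with overlapping intervals. On the same length in the old library, Il11ra1 and Il6st were apart. There Il6st and Lifr, Il6 and Lif, and Lif and Il6ra overlapped. In the young library Lif came before Il6 on both of these other lengths, with overlapping intervals. The 4 ligands together made up 11.5% of the members' summed FPKM in the old and 9.24% in the young library. The 3 signalling receptors made up 61.3% and 57.9%, and the 2 ligand-binding receptors 27.2% and 32.9%.

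Across the 9 members, 6 had a counting interval wholly above 1 (Il6, Lif, Clcf1, Il6st, Osmr and Il6ra), 2 had one wholly below 1 (Lifr and Il11ra1), and that of Il11 held 1. Among all genes past the 1 FPKM filter with known reads, 20.6% had an interval wholly above 1 and 33.5% one wholly below. At 2-fold on the log2 scale of FPKM + 1, 1 member was higher and none lower, beside 1.97% of the 12561 genes higher, 0.868% lower and 2.84% in either direction. Among protein-coding genes, which all 9 members are, 1.75% were higher and 0.374% lower. The log2 ratio was above 0 in 6 of the 8 members past the filter and in 40.4% of the 12561 genes. Among the 2669 genes with a mean of 1 to 5 FPKM, the range in which Il6 lies, 3.97% were higher and 2.51% lower. The median log2 ratio over all 9 members was 0.24, and that of the 12561 genes −0.07. Il11, with a mean of 0.326 FPKM, did not reach the filter of 1 FPKM. Il6ra passed it with 1.10 FPKM only through the old library, as its young value was 0.685 FPKM. Il6ra is among the 6 members above 0, so that count is not free of the filter.

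**Figure D2:**
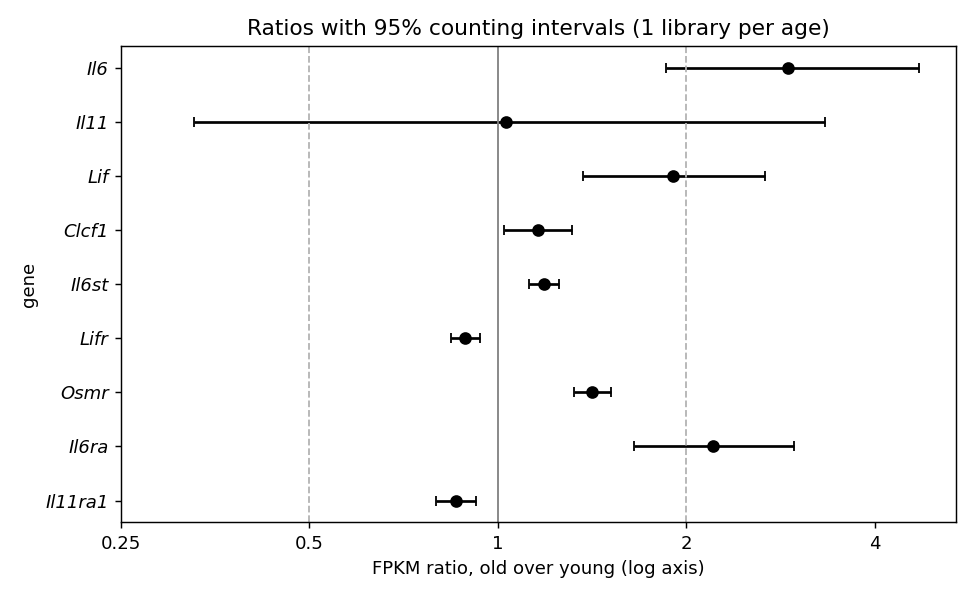
FPKM ratio, old over young (log axis), of each member, with 95% Clopper-Pearson counting intervals as bars, a solid line at 1 and dashed lines at 0.5 and 2. Il6 (2.91) and Il6ra (2.21) lie beyond the 2-fold line with intervals that reach below it, and Lifr (0.887) and Il11ra1 (0.856) lie below 1.

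**Figure D3:**
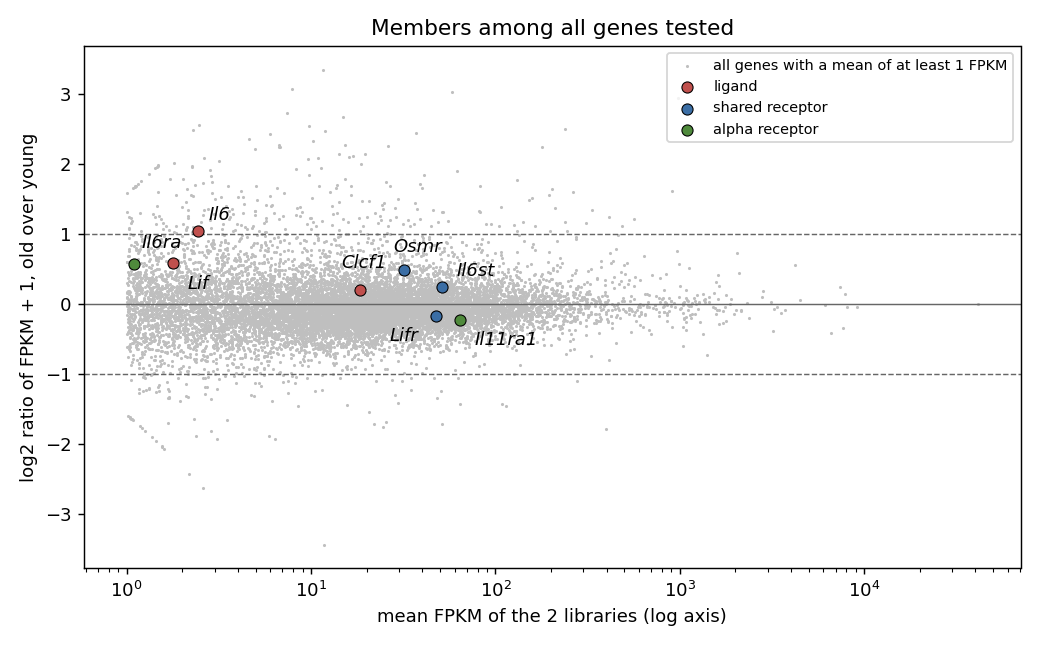
Log2 ratio of FPKM + 1, old over young, against the mean FPKM of both libraries (log axis) for the 12561 genes past the filter (grey) and the 8 members among them (coloured by role). Il6 at 1.04 lies on the upper edge of the cloud past the dashed 2-fold line, and the other 7 members lie inside both lines.

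Other ligands and receptors of the family were mostly not detected. Of 12 such genes 6 had 0 reads in both libraries: the ligand genes Osm, Ctf2, Il27, Ebi3 and Il31 and the receptor Il31ra. For Osm, oncostatin M, 0 reads allow up to 0.109 FPKM in the old and 0.121 FPKM in the young library, as the level that 3 reads would give. Cntfr, the ligand-binding receptor for Clcf1, was at 2.94 FPKM in the old and 2.04 FPKM in the young library, and the cardiotrophin gene Ctf1 at 4.30 and 2.88 FPKM, with ratios of 1.44 and 1.49 whose intervals held 1. Cntf had 3 reads in the old and 8 in the young library, and 78.9% of its exon bases overlap Zfp91. None of the 3 genes past the filter was at 2-fold.

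None of the 12 genes for the kinases, STATs and adaptors behind the receptors was at 2-fold, and the median log2 ratio was 0.05. Stat3, the main transcription factor of gp130, was at 148 FPKM in the old and 113 FPKM in the young library, a ratio of 1.31 with an interval of 1.25 to 1.37. The adaptor Grb2 was lower in the old library, with a log2 ratio of −0.27. Jak1, a kinase bound to gp130, was at 156 FPKM in the old and 159 FPKM in the young library.

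Of the 8 feedback inhibitors past the filter 6 had a log2 ratio below 0, as had 59.6% of the 12561 genes. Their median log2 ratio was −0.29, beside −0.07 over all genes, and none was at 2-fold on that scale. Socs3, the inhibitor that docks on gp130, was at 83.7 FPKM in the old and 168 FPKM in the young library, from 1662 and 3010 reads. Its FPKM ratio was 0.498, with an interval of 0.469 to 0.529, and its log2 ratio of −0.998 was just short of the threshold. Cish, an inhibitor of Stat5 signalling, was at 2.99 FPKM in the old and 5.01 FPKM in the young library, and Pias3, an inhibitor of Stat3, at 31.1 and 46.6 FPKM. The phosphatase gene Ptpn1 had the highest ratio among the 8, at 59.2 FPKM in the old and 47.4 FPKM in the young library.

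Known targets of Stat3 went both ways. Of 20 listed genes 18 passed the filter. Past 2-fold were 3 genes, all higher in the old library, beside 1.97% of the 12561 genes higher and 0.868% lower. The list median was 0.20 on the log2 scale, beside −0.07 over all genes. The list includes the members Osmr and Il6st and also Socs3 and Stat3. The 3 higher genes were Lcn2, the iron-binding acute-phase protein lipocalin-2, at 13.5 FPKM in the old and 1.19 FPKM in the young library, Timp1, an inhibitor of matrix metalloproteinases, at 143 and 65.2 FPKM, and Cebpb, a C/EBP transcription factor, at 177 and 84.7 FPKM. The ratio was 11.4 for Lcn2 (interval 7.03 to 19.5), 2.19 for Timp1 (2.03 to 2.37) and 2.09 for Cebpb (1.98 to 2.20). Lower in the old library were Socs3, the AP-1 gene Junb (log2 ratio −0.66), Myc (−0.52), the survival gene Mcl1 (−0.35) and the interferon regulatory factor Irf1 (−0.31). The target genes Bcl3 and Ccnd1 were higher, with log2 ratios of 0.77 and 0.71. Another gene overlapped 23.4% of the exon bases of Ccnd1, 20.7% of those of Cebpb and 6.51% of those of Bcl3.

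The mRNAs of proteins that act on Il6 mRNA or its promoter also differed in both directions. Among 7 genes for RNA-binding proteins none was at 2-fold. Zfp36, tristetraprolin, which binds AU-rich elements such as those printed above and speeds decay, was at 38.1 FPKM in the old and 62.0 FPKM in the young library. Its relatives were higher in the old library, Zfp36l2 at 96.9 against 55.8 FPKM and Zfp36l1 at 244 against 146 FPKM, the second with 55.9% of its exon bases overlapped by Gm26669. Zc3h12a, the nuclease Regnase-1 that cuts Il6 mRNA, was at 15.4 FPKM in the old and 10.4 FPKM in the young library. Of 14 transcription factors of the AP-1, C/EBP, NF-kB and CREB families, whose motifs were searched in the windows above, 2 were past 2-fold, both higher in the old library. Over the 12561 genes 1.97% were higher and 0.868% lower at that threshold. The list median was 0.02 on the log2 scale, beside −0.07 over all genes. The 2 genes were Cebpb and the AP-1 gene Fosl1, at 28.0 FPKM in the old and 5.68 FPKM in the young library, with 57.2% of its exon bases overlapped by Ccdc85b. Fosl2 had a log2 ratio of 0.69 and Nfkb1 one of 0.46, while Fos had −0.58. The shedding enzymes Adam10 and Adam17, which can release receptors such as Il6ra from the cell surface, had log2 ratios of 0.10 and 0.06. Rhbdf1 and Rhbdf2, partners of Adam17, had 0.23 and 0.28, and none of the 4 was at 2-fold.

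**Figure D4:**
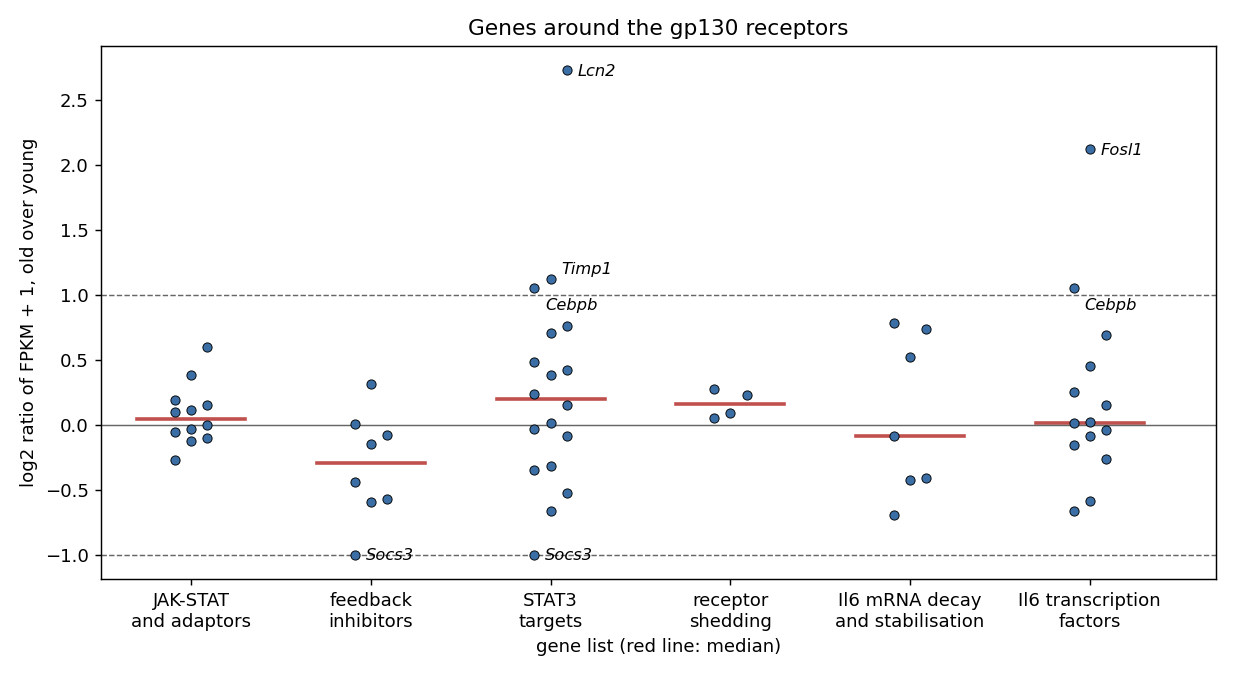
Log2 ratio of FPKM + 1, old over young, of each gene past the filter in 6 lists around the receptors; points are genes, red lines list medians, dashed lines 2-fold. Lcn2, Timp1, Cebpb and Fosl1 lie past the upper line, and Socs3 lies just inside the lower line in both lists that hold it. The list median largest in size is −0.29, that of the feedback inhibitors.

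The protein-coding genes whose pair of log2 values lay nearest to those of Il6 were Mtus2, at 3.88 FPKM in the old and 1.15 FPKM in the young library, Gbp9, at 3.38 and 1.14 FPKM, and AW011738, at 3.48 and 1.08 FPKM. Those nearest to Il6st were Rhbdf1, at 55.0 FPKM in the old and 46.6 FPKM in the young library, Zmynd8, at 56.2 and 45.8 FPKM, and Oaf, at 55.5 and 45.6 FPKM. The measure was the Euclidean distance of log2(FPKM + 1) over 2 libraries among 21938 other genes, so it says only that these genes had like levels.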

How the data were processed

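RNA sequencing values of 2 libraries, 1 from old and 1 from young mice, were used, grouped by their age label. The authors deposited FPKM values, fragments scaled by gene length and library size. Per the submitters' processing notes, the tools were edgeR, HTSeq, STAR and fastp, on mm10. What each did, its version, the annotation release and the handling of strand were not given in the sources used here. GENCODE M21 (GRCm38) gave symbols for 55227 of 55487 identifiers.

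Reads and the total of each library were worked out from the FPKM steps, with the rounded mean transcript length as gene length. The total was chosen so that most values came out as whole reads. In each library 97.6% of values above 0 came out whole within 0.01 (20377 of 20884 in the old, 19378 of 19854 in the young). So did all members' values. They served only for counting intervals (95%) and for the limit of 3 reads for genes at 0. The measure was log2 of FPKM + 1, old over young, with a mean of at least 1 FPKM; 2-fold counted as higher or lower. With 1 library per group there is no test and no p-value. The members and lists were chosen with earlier results of these data known. Named genes were the members, list genes at 2-fold, the 3 largest differences of each list, the markers and the 3 nearest genes to Il6 and Il6st; others named (such as Jak1, Nfkb1, Ccnd1 and Irf1) were chosen after their values were seen. Some genes that the rule names are not reported here. Shared sequence was measured with words of 50 bases taken every 25 bases from each gene's transcripts and searched in those of other genes. The calculation was tested on simulated data. Python 3.11.15 with scipy 1.17.1 was used.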

Additional observations from a re-analysis of the deposited data

How the results depend on the processing

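The size of the differences of low members depended on the pseudocount. At a pseudocount of 0.1 the log2 ratios, old over young, of Il6, Lif and Il6ra were 1.47, 0.87 and 1.04, and at a pseudocount of 5 they were 0.47, 0.24 and 0.20, as the added value weighs more on low levels. The number of members at least 2-fold higher was therefore 2 at a pseudocount of 0.1 (Il6 and Il6ra), 0 at a pseudocount of 5, and 0 of 5 members with a mean of at least 10 FPKM, against 1 as reported. No member was 2-fold lower under any of these settings. Socs3 reached 2-fold lower at a pseudocount of 0.1 and after rescaling without the 10 most abundant genes, which gave 1 lower gene among the feedback inhibitors and 1 among the Stat3 targets, against 0. Over all genes, a pseudocount of 0.1 gave 408 higher and 236 lower, and one of 5 gave 101 and 20, against 248 and 109. None of the 9 members changed direction under the pseudocounts, the rescaling or centring on the median. The orders by longest transcript and by all exon bases were added after the data were seen. No paired analysis was possible because each age had 1 library, and for the same reason no replicate could be left out. Depth limits Il11 most, with 8 reads in the old and 7 in the young library.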
